A study of Mus musculus with 2 samples.

Results

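Slit, netrin, semaphorin and ephrin genes and the genes of their receptors were compared between 2 expression arrays. Both arrays profiled MOS-J, an osteosarcoma line of the mouse. The members were chosen by symbol, with earlier results of these data known. A gene belonged if its symbol was Robo, Slit, Sema, Plxn, Nrp, Unc5, Ntn, Epha, Ephb, Efna or Efnb followed by a number, a letter and number, or a number and letter, and Unc5 followed by a letter was read as fitting this pattern. This gave 69 genes on 154 probe sets, out of 18193 genes with a probe set of 1 symbol. One array held control cells (group control) and the other held cells given human DKK1 (group DKK1), each from 500 ng of total RNA. The labels describe a lentivirus route, a plasmid route, drug selection of clones and a later red fluorescent mark with sorting. The sources used here do not say which of these the profiled cells went through. DKK1 is a secreted antagonist of canonical Wnt signalling, and the comparison asks how expression differs in tumour cells that carry it. With 1 array per group no value has a replicate error, no test across genes was made, and every difference describes these 2 arrays.

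These ligands and receptors steer growing axons and also act on migrating tumour, bone and blood vessel cells. Slits are secreted proteins that mostly repel cells bearing Robo receptors. Netrins act through Dcc, neogenin and the Unc5 receptors, and without a ligand Unc5 receptors can promote cell death. Class 3 semaphorins are secreted and bind neuropilins, which signal through plexins, while most other vertebrate semaphorins are membrane proteins that bind plexins directly. Ephrins of the A type are held in the membrane by a lipid anchor and those of the B type cross it, and both signal to Eph receptor tyrosine kinases on neighbouring cells. In bone, Sema3a and the ephrin-B and EphB proteins take part in communication between osteoblasts and osteoclasts.

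The values are MAS5 signals, 1 per probe set, on a linear scale. A probe set was taken as measured if its signals on both arrays averaged at least 71.3, the median of such averages over the array. Each difference is log2(signal + 16.6) in DKK1 cells minus the same in control cells, averaged over a gene's measured probe sets, and it understates the change of dim probe sets. A gene was called where this reached 1 in either direction (2-fold) and all measured probe sets had the same sign. Of the 69 genes, 46 had a measured probe set, 66 probe sets in all. The pooled SD between measured probe sets of 1 guidance gene was 0.42 on the log2 scale, against 0.45 over all genes, and this is agreement between probes on the same arrays, not between cultures. Over all probe sets the median signal was 62.6 for control and 78.6 for DKK1 cells.

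Of the 46 measured guidance genes, 17 were called higher in the DKK1 cells, 2 were called lower and 27 were not called. Over all 11058 measured genes, 11.7% were called higher and 6.91% lower, against 37.0% and 4.35% of the measured guidance genes. Differences lay above 0 for 37 and below 0 for 9 of the 46, and the median difference was 0.85, against 0.10 over all measured genes. Of the 17 higher genes, 6 passed the filter through the DKK1 array alone, with a control signal below 71.3 on each measured probe set. Such genes had to differ to be measured, so the share over measured genes is no support by itself. Control signals below the filter were on 15.2% of measured guidance probe sets, against 6.06% of measured probe sets of all genes. With every probe set of all 69 genes included, 15 genes were higher and 2 lower (21.7% and 2.90%), against 9.50% and 5.63% of all 18193 genes, and the median was 0.32 against 0.08. With a filter at the 75th percentile of mean signals (427), 8 of 22 guidance genes were higher and 1 lower, against 10.0% and 8.82% of all genes, and the same limit holds, since 5 of these 8 had control signals below 427 on each probe set kept. A larger pseudocount of 69.9 gave 13 higher and 0 lower, against 8.26% and 5.48%. With dim signals raised to the filter 17 were higher and 1 lower (11.4% and 6.93% of all genes), and with the brightest probe set of each gene 18 and 1 (12.0% and 8.34%). Ligands and receptors did not part, with 9 of 25 measured ligands and 8 of 21 measured receptors higher and 1 of each lower.

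**Figure D1:**
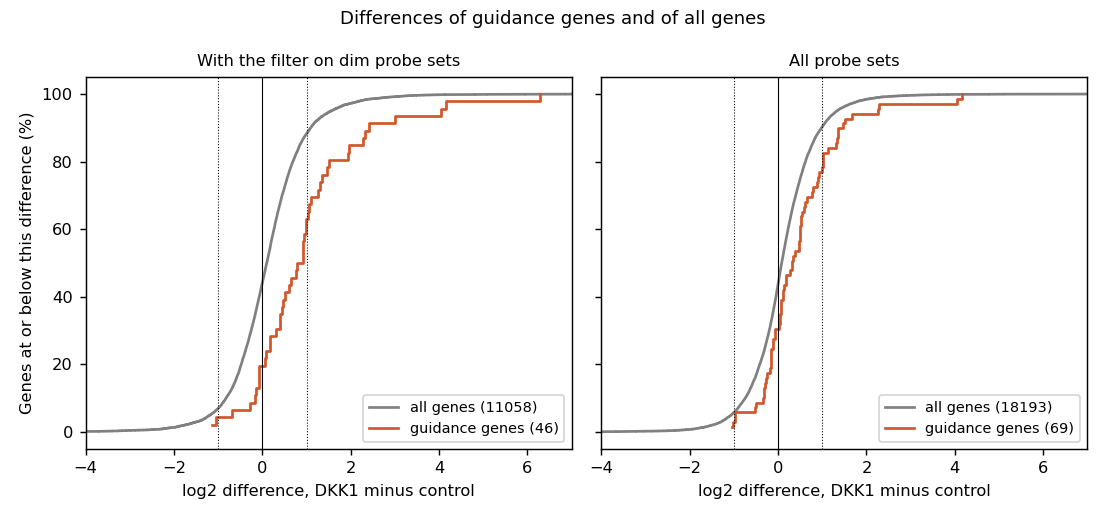
Share of genes (vertical axis, percent) at or below each log2 difference between the DKK1 and the control array (horizontal axis), for all genes in grey and guidance genes in orange, with the filter on dim probe sets (left) and over all probe sets (right). Dotted lines mark 2-fold; the orange curve lies to the right of the grey one over most of its range, with medians of 0.85 against 0.10 on the left and 0.32 against 0.08 on the right.

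All 7 Slit and Robo genes were measured, 5 were called higher (71.4%, against 11.7% of all measured genes) and none lower. All 7 differences were above 0, with a median of 1.06. Slit1, Slit3, Robo1, Robo2 and Robo3 passed the filter through the DKK1 array alone, so they had to differ to be measured. After median centring 3 were called higher, against 9.41% of all genes, and the median was 0.93. Poly-A scaling left 3 called higher, against 4.60% of all genes, with 6 of 7 differences above 0 and a median of 0.49. The 1 probe set of Slit3 read 3.93 in control cells and 351 in DKK1 cells, which gives 4.16 on the log2 scale. Its control signal was dim, and with that raised to the filter the fold was 4.93. Slit2 had a bright probe set that read 691 in control and 1459.7 in DKK1 cells (1.06), and its call ended after median centring (0.93) and on the poly-A controls (0.43). Its 2 dim probe sets had the same sign, with 21.8 and 54.3 for one and 32.7 and 90.5 for the other. Slit1 was not called at 0.98, with 59.5 and 133 on its measured probe set. The 3 Slit genes were thus near or past 2-fold, and on the control array Slit1 and Slit3 were below the filter.

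Robo1 is a Slit receptor gene with 3 probe sets, 1 of them measured. That probe set read 10.99 in control cells and 2127 in DKK1 cells, which gives 6.28 on the log2 scale and 29.8-fold with the control signal raised to the filter. The other 2 probe sets of Robo1 stayed below the filter on both arrays, with 44.9 and 58.1 for one and 50.5 and 60.5 for the other. The 3 probe sets therefore disagreed in size while sharing a sign, and the mean over all of them was 2.25. Robo2 read 4.23 in control and 329.9 in DKK1 cells on its 1 probe set (4.05, or 4.63-fold from the filter). Robo1 and Robo2 lie next to each other among the protein-coding genes of chromosome 16, and both were dim in control cells. Robo3, whose product is best known from axons crossing the midline, had 49.2 in control and 118 in DKK1 cells (1.03), and its second probe set was dim with 4.24 and 3.17. Its call ended at 0.48 with the dim probe set included and at 0.73 with dim signals raised to the filter. Robo4, which is typical of endothelial cells, lies beside Robo3 on chromosome 9 and was at 76.1 and 80.9 (0.07).

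The stretches before the transcription start are shown for the members whose calls held under every alternative setting that measured them and that have 1 start listed, together with Unc5b, a lower gene measured by 2 probe sets. Each is the 250 bases before the start, from RefSeq on GRCm38.p6, written 5′ to 3′ on the strand of the gene. Capitals mark GGGCGG, the GC box bound by Sp1-type factors, or its reverse complement CCGCCC.
Slit3 (chr11:35121206-35121455, + strand): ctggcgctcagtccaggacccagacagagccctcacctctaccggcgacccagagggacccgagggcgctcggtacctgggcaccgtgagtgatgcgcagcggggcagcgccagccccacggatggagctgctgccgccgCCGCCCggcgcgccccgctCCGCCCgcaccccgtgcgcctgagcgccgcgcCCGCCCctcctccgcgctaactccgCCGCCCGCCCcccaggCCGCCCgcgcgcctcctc
Robo1 (chr16:72662899-72663148, + strand): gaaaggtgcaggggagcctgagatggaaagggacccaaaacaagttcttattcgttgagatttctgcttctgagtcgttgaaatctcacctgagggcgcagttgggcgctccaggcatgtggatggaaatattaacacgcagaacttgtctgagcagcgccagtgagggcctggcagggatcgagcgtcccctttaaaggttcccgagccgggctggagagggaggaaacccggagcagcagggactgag
Sema3c (chr5:17574566-17574815, + strand): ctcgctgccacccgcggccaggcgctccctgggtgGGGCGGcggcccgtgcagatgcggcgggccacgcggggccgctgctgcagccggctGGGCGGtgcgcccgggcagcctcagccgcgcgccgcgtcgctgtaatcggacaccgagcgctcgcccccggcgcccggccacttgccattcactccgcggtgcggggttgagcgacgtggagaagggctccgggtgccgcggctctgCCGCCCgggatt
Efna5 (chr17:62881318-62881567, - strand): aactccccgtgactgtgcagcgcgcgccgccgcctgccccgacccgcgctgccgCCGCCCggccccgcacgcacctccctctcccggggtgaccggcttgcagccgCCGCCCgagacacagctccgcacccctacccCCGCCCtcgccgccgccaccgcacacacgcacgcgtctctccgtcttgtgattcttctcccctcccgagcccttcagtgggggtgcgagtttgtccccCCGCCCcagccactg
Unc5b (chr10:60831582-60831831, - strand): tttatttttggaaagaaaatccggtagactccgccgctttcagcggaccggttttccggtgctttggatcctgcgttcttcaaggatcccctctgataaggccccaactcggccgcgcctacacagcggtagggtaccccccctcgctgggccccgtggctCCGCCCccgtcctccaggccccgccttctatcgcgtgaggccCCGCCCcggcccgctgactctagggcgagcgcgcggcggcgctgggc
In all, 5 short motifs were searched on both strands, and in these 5 stretches the GC box alone was matched. Slit3 had 6 matches, of which 2 overlapped each other, Efna5 had 4, Sema3c had 3 and Unc5b had 2. Robo1 had none and the lowest G+C content, 56.0%, against 66.8% in Unc5b and 74.8% to 78.8% in the others. The lower gene and 3 of the 4 higher genes thus shared the GC box.

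Of the guidance genes 60 of 69 matched the promoter table, with 76 starts. The GC box stood in 71.1% of these 76 stretches, in 11 of the 20 that belong to higher genes (55.0%) and in both of the lower genes, against 32.7% of all 32851 stretches. Median G+C content was 64.2% for guidance genes and 52.4% for all, and it was 65.6% for higher and 64.4% for uncalled guidance genes. A TCF/LEF motif, CTTTGAT, the element through which beta-catenin acts, was in 1 of the 76 and in 3.21% of all stretches. An interferon response element core, GAAANNGAA, was in 4 of the 76 and 7.13% of all, a C/EBP-ATF element, TGATGNAAT, in 1 and 0.816%, and a TATA box, TATAAA, in 2 and 12.4%. None of the 20 stretches of higher genes held the TCF/LEF, interferon or C/EBP-ATF letters, and 1 held the TATA box. A match is a run of letters in this window, not a shown binding site.

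Netrins and their Unc5 receptors went in both directions. Ntn1 read 1441 in control and 2265 in DKK1 cells on its measured probe set (0.65), and 51.1 and 51.2 on a dim one. Ntn4, a laminin-like netrin of basement membranes, had 293 and 600.3 and stood just under the threshold at 0.996, with 11.6 and 3.94 on a dim probe set. Neither was called. Unc5b was called lower, with 1074 in control and 563 in DKK1 cells on one probe set and 682 and 293 on the other, on average −1.04 (SD 0.18 between the 2). Both probe sets were well above the filter on both arrays. Unc5c went the other way, with 134 and 305 on its measured probe set (1.09) and 61.9 and 75.8 on a dim one, and the call ended at 0.66 with the dim one included. The call of Unc5c also ended after median centring (0.97), and that of Unc5b on the scaling by hybridisation controls (−0.69), so these calls lay near the threshold.

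The class 3 semaphorins, the secreted ones, included 3 of the higher genes. Of 7 on the array 5 were measured, 60.0% of them higher, against 11.7% of all measured genes. Their median was 1.51, and none was called lower. Sema3c, which guides cells of the developing heart and has been studied in tumour cell migration, had 2 measured probe sets. One read 4318 in control and 18636 in DKK1 cells and the other 246 and 1416, on average 2.28 (SD 0.24) on the log2 scale. All 4 signals were above the filter, and among guidance genes with several measured probe sets and no dim signal on them Sema3c differed most. Sema3a, which repels axons and protects bone, had 1156 and 3029 on the brightest of its 3 probe sets, 309.6 and 869.9 on the second and 46.1 and 191 on the third. Its difference was 1.51 (SD 0.19), and the 3 probe sets were alike. Sema3f, a ligand of Nrp2, had 91.6 in control and 557 in DKK1 cells (2.41). That value rests on 1 probe set of the x_at kind, whose probes can match other transcripts, while its 2 other probe sets were dim, at 14.0 and 23.2 and at 2.72 and 29.6. Sema3b was at 0.92 on 2 probe sets, not called, with 455 and 852 on the brighter one. Sema3e, the class 3 member that binds Plxnd1 without a neuropilin, was lower on both measured probe sets, at 184 and 91.8 and at 176 and 122 (−0.68, SD 0.29), and was not called. Its 2 dim probe sets had the opposite sign.

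The other semaphorins, of classes 4 to 7, showed no common direction. Of 13 on the array 9 were measured, 1 was higher and 1 lower (11.1% each, beside 11.7% and 6.91% of all measured genes), and the median was 0.06. Sema6d was higher on its measured probe set, at 92.9 and 247 (1.27), but its 3 dim probe sets were mixed and brought the mean to 0.31. Sema5a was lower, at 117 in control and 44.4 in DKK1 cells (−1.13). Its 3 dim probe sets had the same sign, among them one at 90.1 and 10.6, and the mean over all 4 was −0.97. With the dim DKK1 signal raised to the filter Sema5a was 1.64-fold lower and no longer called. Sema7a, which is held to the membrane by a lipid anchor and binds integrins, had 269 and 529 (0.94), and Sema4g had 60.5 and 114 (0.76), and neither was called. Sema6c was at 0.39. Sema4a (−0.17), Sema4b (−0.08), Sema6b (−0.07) and Sema4c (0.06) were close to 0.

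Plexins and neuropilins, the semaphorin receptors, differed less than the class 3 ligands. Of 7 measured plexins Plxnb1 was called, with 119.7 in control and 289.6 in DKK1 cells on one probe set and 40.9 and 142 on the other (1.32, SD 0.21). Its call ended with the larger pseudocount (0.93), with loess (0.97) and on the poly-A controls (0.74). Plxnb1 encodes the receptor of Sema4d, whose own 3 probe sets were all dim, with signals from 9.16 to 59.1. Plxnd1 had 336 and 589 (0.78) and Plxnb2 had 1909.9 and 2659.5 (0.47). Plxna3 (0.39), Plxnb3 (0.32), Plxna1 (0.18) and Plxna2 (−0.06) followed, none of them called. Nrp1, a receptor shared by Sema3a and vascular endothelial growth factor, was higher on all 4 of its probe sets, from 3143 and 4302 on the brightest to 200.3 and 429 on the dimmest, with a mean of 0.61 (SD 0.30) that was not called. Nrp2 was at −0.15 (SD 0.65), and its 4 probe sets ran from −0.90, at 8311 and 4454, to 0.66, at 244 and 394. Its probe sets thus went both ways and give no direction for the gene.

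**Figure D2:**
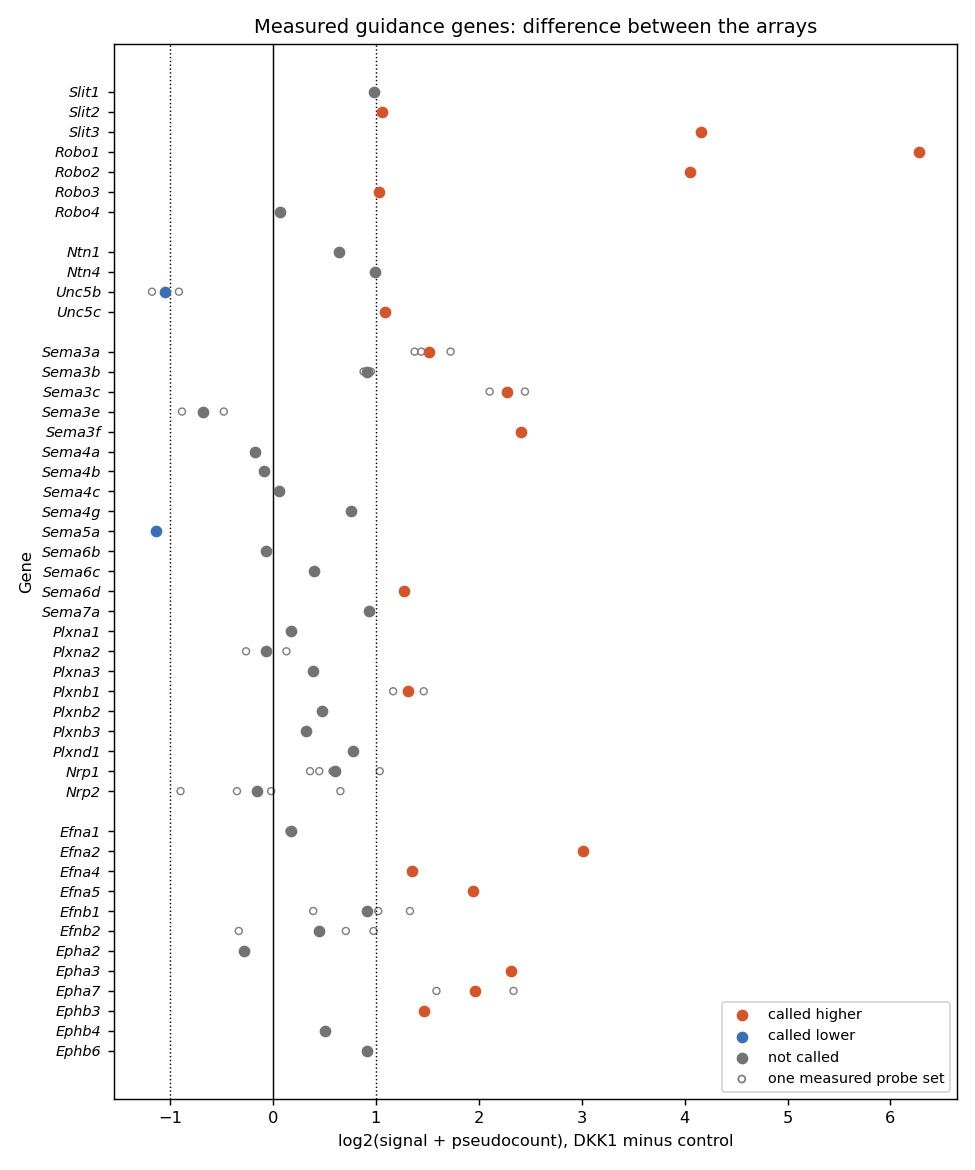
Differences between the DKK1 and the control array (horizontal axis, log2 of signal plus pseudocount) for the 46 measured guidance genes (vertical axis), in blocks of Slit and Robo, netrin and Unc5, semaphorin with plexin and neuropilin, and ephrin with Eph. Filled points are gene means coloured by call, open points single measured probe sets, and dotted lines mark 2-fold; 17 genes lie in the higher and 2 in the lower class, and the filled point of Robo1 is at 6.28.

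Ephrins and Eph receptors were higher or not called. Of 21 on the array 12 were measured, 6 were higher, none was lower, and 11 of the 12 differences were above 0, with a median of 1.13. The measured Efna2 and Epha3 probe sets passed the filter through the DKK1 array alone. Over all probe sets of all 21 genes, 4 were higher and 1 was lower, beside 9.50% and 5.63% of all genes, and the median was 0.33 against 0.08. Among A-type ephrins, Efna5 read 187 in control and 767 in DKK1 cells (1.94) and a dim probe set at 7.39 and 8.88. Efna4 had 102 and 285 on its 1 probe set (1.35). Efna2 had 21.9 and 295 on its measured probe set (3.01, or 4.14-fold from the filter), while its dim one went the other way, at 40.1 and 6.83. The mean over both Efna2 probe sets was 0.87, so its call rests on which one is used. Efna1, a ligand of Epha2, was at 0.17 on 2 probe sets that differed little, with 283 and 319 on the brighter one. Efna1, Efna3 and Efna4 follow one another on chromosome 3, and of these 3 neighbours Efna4 alone was called, while Efna3 was not measured.

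The B-type ephrins were not called. Efnb1 had 402 and 1036, 284 and 595, and 202 and 269.8 on its 3 probe sets, a mean of 0.92 (SD 0.48), and all 3 were higher in DKK1 cells. Efnb2, which marks arterial endothelium and acts in bone remodelling, had 991 and 1967 on its brightest probe set and 308 and 515 on the next. The dimmest measured one read 84.8 and 63.9, and the mean was 0.45 (SD 0.69).

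Eph receptors of both types were among the higher genes. Epha7 had 2 measured probe sets, at 163 and 892 and at 123 and 405 in control and DKK1 cells, on average 1.96 (SD 0.53). Its 2 dim probe sets had the same sign, and all 4 signals behind the value were above the filter. Epha3, a receptor of Efna5 that is studied in several tumour types, had 63.6 and 382 (2.31). Of its 3 dim probe sets 2 were higher and 1 lower, so the call did not stand with all of them, although the mean over all 4 was 1.004. Ephb3, a receptor of B-type ephrins, had 355 and 1011 on its 1 probe set (1.47). Ephb6, which lacks kinase activity, was at 0.91 with 129 and 256, and Ephb4, the usual partner of Efnb2, at 0.51 with 100.2 and 149. Epha2, a receptor often abundant in tumour cells, had 995 and 818 (−0.28), the 1 measured gene of the ephrin system below 0.

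**Figure D3:**
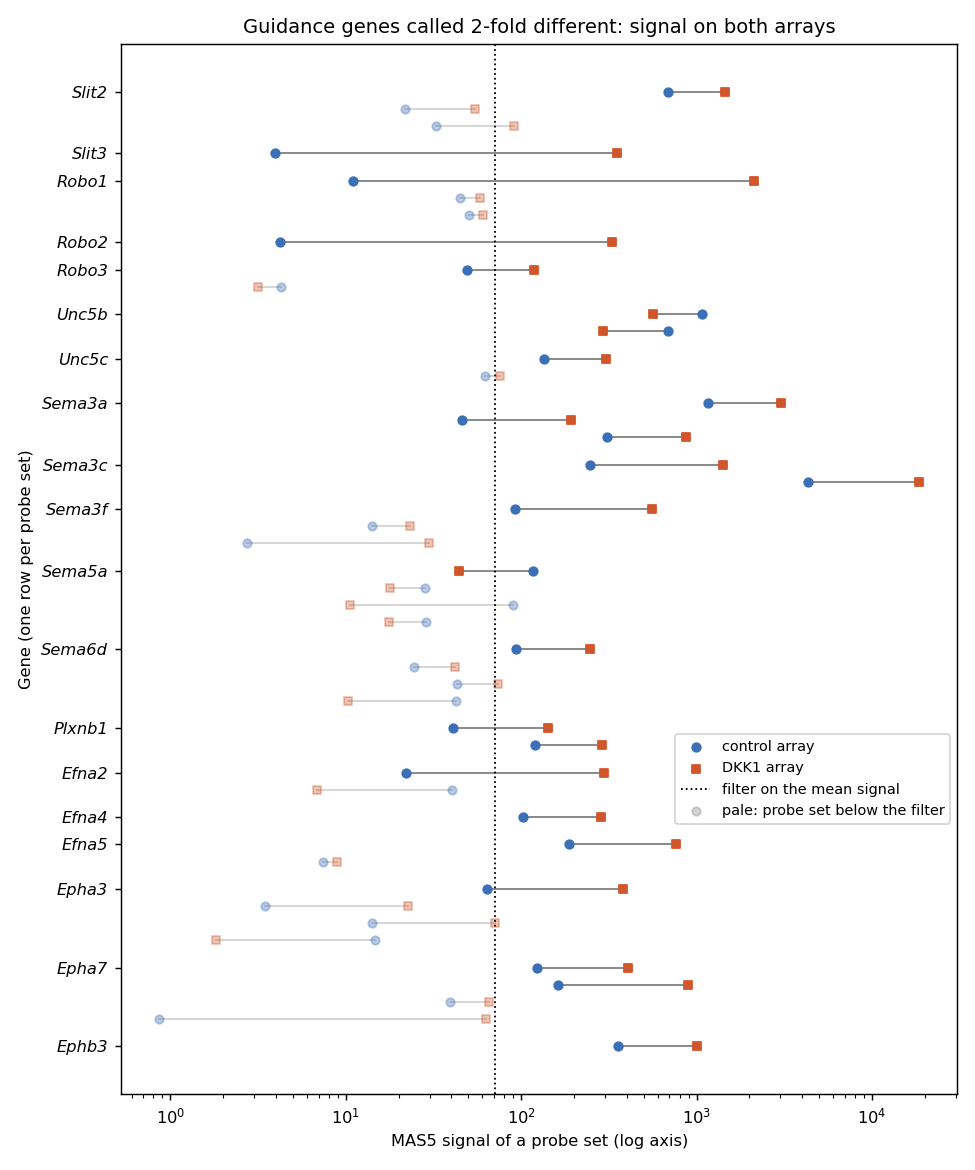
MAS5 signals (horizontal axis, log scale) of every probe set of the 19 called guidance genes (vertical axis), with a circle for the control array and a square for the DKK1 array joined by a line. Pale rows are probe sets below the filter on the mean signal (dotted line at 71.3); the dark rows of Robo1, Robo2 and Slit3 start at control signals between 3.93 and 10.99, and the squares of Unc5b and Sema5a lie to the left of their circles.

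The remaining 23 genes had no measured probe set, with 50 probe sets and signals from 0.553 to 91.1. They were the netrins Ntn3, Ntn5, Ntng1 and Ntng2, the netrin receptors Unc5a and Unc5d, the semaphorins Sema3d, Sema3g, Sema4d, Sema4f, Sema5b and Sema6a, the plexins Plxna4 and Plxnc1, the ephrins Efna3 and Efnb3, and the Eph receptors Epha1, Epha4, Epha5, Epha6, Epha8, Epha10 and Ephb1. These genes have no call here, and a dim signal does not show that a gene is silent. Efna3 was the 1 of them past 2-fold with the filter dropped, at −1.03, from 77.8 and 58.0 on one probe set and 54.8 and 5.08 on the other.

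The partners of these receptors were examined through 5 lists of co-receptors, other ligands and signalling proteins. Of 91 genes on the array 76 were measured, 12 were higher (15.8%) and 6 lower (7.89%), beside 11.7% and 6.91% of all genes, with a median of 0.19. These shares were near those of all genes. The list of co-receptors and ligands of Robo, neogenin and Unc5 had 5 of 13 measured genes higher and none lower, with a median of 0.75. It had 3 higher with the larger pseudocount, the stricter filter, quantile normalization or loess, and 1 higher with a median of 0.12 on the poly-A controls. The 5 included Rgma, a ligand of neogenin (1.64, with 100.4 in control and 348 in DKK1 cells), and Flrt2, a ligand of Unc5 receptors (1.23). The heparan sulfate proteoglycan genes Sdc3 (1.58, 253 and 790.03) and Sdc2 (1.33, 5747 and 11539 on the brightest probe set) were also higher. Neo1 (−0.05) and Dcc (0.14), the netrin receptors outside the Unc5 family, were not called.

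Co-receptors and ligands of plexins and neuropilins had 1 of 10 measured genes higher (10.0%) and 2 lower (20.0%), beside 11.7% and 6.91% of all genes. The kinase receptor gene Erbb2, a partner of plexin B1, was higher (1.17, 224 and 526). L1cam, an adhesion molecule that pairs with Nrp1, was lower (−1.28, 220.1 and 80.8). Vegfa, the growth factor ligand of neuropilins, was also lower (−1.20, SD 0.64, with 1859.99 and 580.2 on the brighter probe set). Cytoskeletal effectors had 2 of 18 higher (11.1%) and 1 lower (5.56%), near the shares of all genes. The actin-binding Ablim1 was at 2.32 (SD 1.18 between 2 probe sets) and Mical2, an enzyme that oxidises actin, at 1.57 with 28.6 and 117.6. With its control signal raised to the filter Mical2 was 1.65-fold higher, short of the threshold. Limk1, the kinase that phosphorylates cofilin, was at −1.17. Adaptors, kinases and proteases had 3 of 16 higher (18.75%) and 1 lower (6.25%). Adam10, a protease that sheds ephrins (1.31, SD 0.24), Fes (1.29, SD 0.01) and Cdk5 (1.25, SD 0.62) were higher. Adam10 and Cdk5 had a signal below the filter, and the brightest Cdk5 probe set read 810 and 1431.5, short of 2-fold. The Src-family kinase gene Fyn was lower (−1.38, SD 0.60, with 1541 and 431 on the brighter probe set).

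Because the arrays are scaled apart, directions depend on the scaling. Scaled on hybridisation controls, 26 guidance genes were higher and none lower, against 21.6% and 3.62% of all genes. Scaled on poly-A controls, 9 were higher and 3 lower, against 4.60% and 23.1% of all genes. The median of guidance genes lay 0.75 and 0.76 above the median of all genes under these scalings, against 0.74 as deposited, since such a scaling moves all genes nearly alike. Medians of Slit and Robo genes, class 3 semaphorins and ephrins with Eph receptors stayed above 0 under each scaling. This was partly built in, since Slit1, Slit3, Robo1, Robo2, Robo3, Efna2 and Epha3 passed the filter, set on unscaled signals, through the DKK1 array alone. Among class 3 semaphorins, Sema3e was called lower on the poly-A controls (−1.21). Medians of plexins (−0.21), neuropilins (−0.40), class 4 to 7 semaphorins (−0.56) and the 2 measured Unc5 genes (−0.58) were below 0 on the poly-A controls. Class 4 to 7 semaphorins also had a median below 0 after median centring (−0.07), quantile normalization (−0.07) and loess (−0.05), and so did the Unc5 genes (−0.10, −0.16 and −0.14). The 9 genes called higher on the poly-A controls were Robo1, Robo2, Slit3, Sema3c, Sema3f, Efna2, Efna5, Epha3 and Epha7. Among them, Robo1, Robo2, Slit3, Efna2 and Epha3 passed the filter through the DKK1 array alone, so they had to differ to be measured.

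**Figure D4:**
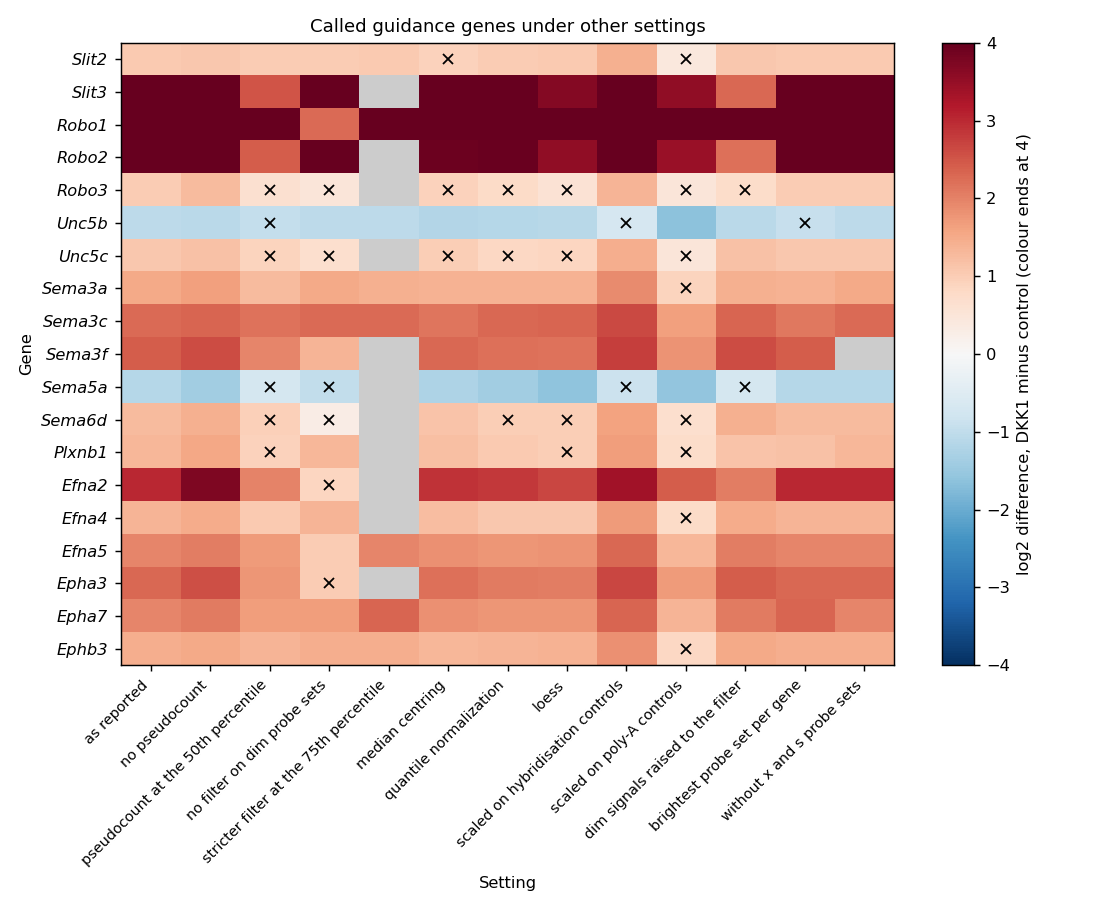
Log2 differences (colour, red for higher in DKK1 cells) of the 19 called guidance genes (rows) as reported and under 12 other settings (columns). Crosses mark settings under which a call was lost and grey cells those where the gene was not measured; no cell changes sign, and 35 cells carry a cross.

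Several guidance genes are typical of neurons and blood vessels, so markers of other cell types were examined beside them. Of 8 endothelial markers 7 were not measured, and the signals of these 7 summed to 219 in control and 103 in DKK1 cells. Kdr was the 1 measured, at 66.0 and 115.7, and with it the sums were 285 and 218. Pecam1 (37.5 and 37.7) and Cdh5 (36.4 and 1.29 on its brighter probe set) stayed below the filter. Of 8 neuronal and glial markers 7 were not measured. Sox10 was called higher on 1 of its 3 probe sets, with a dim control signal (1.71, with 61.7 and 240.4). Tubb3 (126 and 9.05) and Mbp (97.9 and 33.6 on its brightest probe set) were lower in DKK1 cells but not measured. Of the other unmeasured ones, by brightest probe set, Snap25 (26.1 and 4.46) was lower. Rbfox3 (12.2 and 74.2) and Gfap (9.92 and 42.5) were higher, and Syp (64.8 and 68.3) and Syt1 (65.4 and 70.9) differed little. With all probe sets of the 8 included, 3 differences were above 0, and 0 genes were called higher and 1 lower. The signals of all 8 summed to 876 and 846, and those of the 7 to 687 and 567. Of 7 leukocyte markers 4 were measured, summing with the rest to 723 and 874, and Ptprc stayed at 11.7 and 4.24 on its brighter probe set. Lyz2, the lysozyme gene of macrophages, was called higher (2.29, with 14.5 and 136), and Laptm5, a lysosomal protein gene of blood cells, was called lower (−1.10, with 113 and 44.2). With dim signals raised to the filter, Lyz2 was 1.91-fold higher, Laptm5 was 1.59-fold lower and neither was called. Cd68 (0.48, with 86.4 and 127) and Csf1r (0.45, with 134 and 162 on its brightest probe set) were above 0 and not called. Their measured probe sets had no signal below the filter. Of 6 epithelial markers 3 were measured, with sums of 573 and 777. Of 8 osteoblast markers 6 were measured, among them Col1a1, Col1a2, Sparc, Sp7, Alpl and Phex, while Ibsp and Dmp1 were below the filter on both arrays. Phex, an endopeptidase gene of phosphate handling in bone, was the 1 called, lower at −3.54 with 199.9 in control and 1.97 in DKK1 cells. That value rests on 1 of its 2 probe sets. With the dim DKK1 signal raised to the filter Phex was 2.80-fold lower, and with its dim probe set included it was not called. The part of other cell types in the guidance gene differences was not tested, and in such bulk RNA more cells of a type and more RNA per cell cannot be told apart.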

How the data were processed

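Total RNA of 2 MOS-J samples, 1 per group, was hybridised to 1 Affymetrix mouse array each. The deposited values are linear intensity signals from MAS5, credited to the submitters' processing notes. Its version, settings and detection calls were not in the sources used here. Array number limits the precision. Symbols came from the platform annotation, and all 69 members matched a RefSeq table by gene ID. Control probe sets stayed out of gene values. The pseudocount of 16.6 is the 25th percentile of all signals and the filter of 71.3 the median of mean signals. Every called member is named with their signals, other measured members with their difference, and up to 4 called genes per partner list. The values of 1 partner list, with 1 gene higher and 2 lower, enter the totals and are not reported singly here. Members and lists were chosen with earlier results of these data known. Python 3.11.15, numpy 2.4.6, pandas 2.3.3 and statsmodels 0.14.6 were used, and the calling step was tested on simulated data. RefSeq promoters read 5′ to 3′: TATAAA was commonest 30 bases before the start on + genes and 29 on − genes. Alternatives covered pseudocount, filter, scaling, dim signals, probe set choice and, chosen after seeing the data, probe sets ending in x_at or s_at.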

Additional observations from a re-analysis of the deposited data

How the results depend on the processing

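With 1 array per group nothing could be left out, and depth shows only as dim signals. No paired analysis was possible because each group has 1 array. The 19 calls were recomputed under up to 12 alternatives, 216 values in all, of which 181 kept the call, 35 lost it and 0 changed sign. Robo1, Robo2, Slit3, Sema3c, Sema3f, Efna5 and Epha7 kept theirs under each alternative that measured them. Part of the 181 was fixed in advance, since taking the brightest probe set could not change the 14 called genes with 1 measured probe set. For Robo2 and Slit3, with 1 probe set each, dropping the filter or the x_at and s_at probe sets could change nothing either. Robo1, Robo2 and Slit3 had also passed the filter through the DKK1 array alone, so the tally is no support by itself. The stricter filter at the 75th percentile (427) did not measure Robo2, Slit3 and Sema3f, and Sema3f also drops out without x_at and s_at probe sets. Robo3 lost its call in 7, Unc5c in 6, Sema6d in 5 and Sema5a in 4 settings.

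With the stricter filter, 8 of 22 measured guidance genes were higher and 1 lower, and 7 partners were higher. With the 50th percentile (69.9) as pseudocount, 13 guidance genes were higher and 0 lower, and 6 partners were higher. Scaled on hybridisation controls, 26 guidance genes were higher, 0 were lower and the median was 1.20, and 23 partners were higher and 2 lower. Scaled on poly-A controls, 9 guidance genes were higher, 3 were lower and the median was 0.26, and 3 partners were higher and 10 lower. These scalings put the median of all genes at 0.45 and −0.50. Without the filter the guidance median was 0.32. The lower count was 1 with dim signals raised to the filter and 1 with the brightest probe set per gene. Otherwise the higher and lower counts of guidance genes and of all partners stayed within 1.5 times of those reported, and the guidance median within 0.25. Values of single systems and lists moved further, as given beside them.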
